A study of Homo sapiens with 2 samples.

Results

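The genes described here are 10 components of the transforming growth factor β (TGF-β) pathway: the ligands TGFB1 and TGFB2, the latency protein LTBP1, the receptors TGFBR1 and TGFBR2, the membrane inhibitor PMEPA1, the nuclear repressors SKI, SKIL and TGIF1, and the secreted target TGFBI. They were chosen by name, with earlier results of these data known. Every probe set whose platform annotation named 1 of these genes and no other was taken. This gave 29 probe sets of 54675 on the array, of which 41091 were named for 1 gene. RNA came from CL1-0, an established human lung adenocarcinoma line labelled as type II alveolar cells, and was hybridised to 2 Affymetrix expression arrays, 1 of cells at 0 h of FSTL1 antibody treatment and 1 of cells at 6 h. FSTL1, follistatin-like 1, is a secreted glycoprotein. The treatment protocol in the labels, which both arrays share, speaks of puromycin selection and of stably transduced cells and names no construct. Cells kept for 6 h without the antibody were not analysed here, so that the antibody and time in culture cannot be told apart.

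TGF-β is secreted as an inactive dimer held by its own propeptide, and latent TGF-β binding proteins such as LTBP1 tie that complex to the matrix until it is released. The active ligand brings the type II receptor TGFBR2 together with the type I receptor TGFBR1, which then phosphorylates SMAD2 and SMAD3, and these enter the nucleus with SMAD4. SKI, SKIL (also called SnoN) and TGIF1 bind SMAD complexes and recruit corepressors, while PMEPA1 is a membrane protein, itself a target of the pathway, that holds SMADs back from the receptor. In epithelial cells the pathway is known for restraining division, and in carcinoma cells for promoting a mesenchymal state and matrix production.

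Each value is the linear intensity of a probe set in arbitrary units. The floor, an assumed background, was the 50th percentile of both arrays' values together, 45.4, and a probe set above it on at least 1 array is called measured. Differences are log2 values at 6 h minus 0 h, and sets or genes were counted when the difference was at least 0.32 either way, a ratio of 5 to 4. With 1 array per time there is no spread between replicates, no test and no p-value, and precision is limited by the number of arrays. The measure of error used instead is the scatter of differences between probe sets of the same gene, an SD of 0.16 pooled over 6122 genes, and probe sets are not replicates. It was larger for dim sets (0.20 for intensities of 45.4 to 84.6) than for bright ones (0.09 above 706.4). Median intensity over the array was 45.8 at 0 h and 44.9 at 6 h, and the 18 hybridisation spike probe sets differed by -0.15 to 0.14.

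Of the 29 probe sets 14 were measured, all of them above the floor on both arrays, and they covered 7 of the 10 genes. LTBP1 and SKIL were higher at 6 h by 1.36-fold on their brightest sets, TGIF1 and TGFB1 were higher by 1.16-fold and 1.20-fold, and SKI differed by less than the scatter between probe sets. TGFB2, TGFBR2 and TGFBI lay below the floor on every probe set and have no direction here. In all, 12 of the 14 measured sets were higher and 2 were lower, where 54.8% of all 23272 measured probe sets with 1 gene were higher. Sets of 1 gene share their target, so the 14 sets are 7 genes and not 14 separate measurements, and in bulk RNA fewer cells with a transcript and less of it per cell cannot be told apart. The split of the 14 sets depended on the normalization of the arrays. It was 11 higher and 3 lower after median centring, 9 and 5 after quantile normalization, and 10 and 4 after loess correction. The median difference over the 14 sets was 0.18, beside 0.02 over all measured sets. Both medians moved with the normalization, to 0.15 beside -0.009 after quantile normalization and 0.16 beside -0.002 after loess correction. Higher by at least 0.32 were 3 of the 14, from 2 genes, where 6.94% of all measured sets were, and 0 of the 14 were lower by as much, where 3.23% were. None of the 14 passed 1.5-fold, a size that 0.761% of all measured sets passed upward and 0.18% downward.

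**Figure D1:**
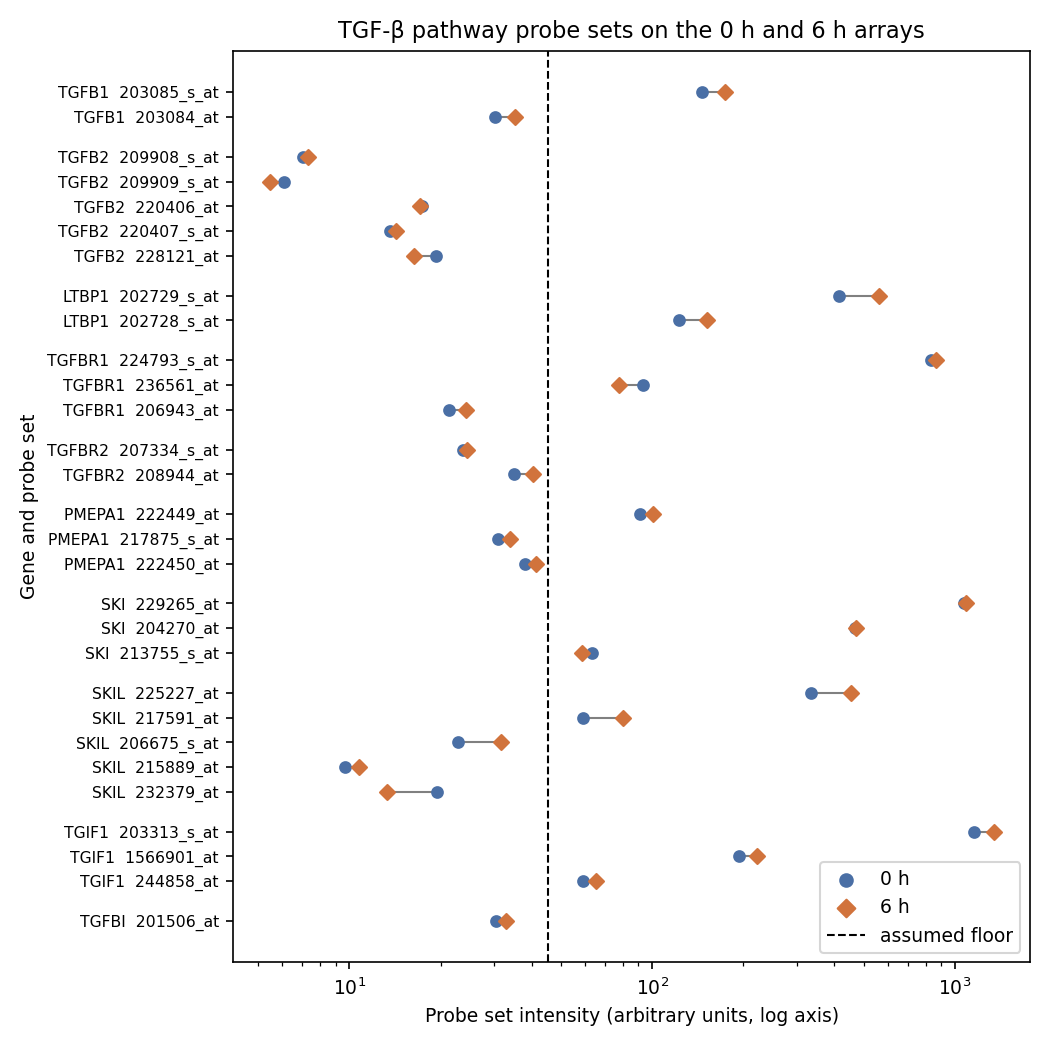
Intensity of all 29 probe sets at 0 h (circles) and 6 h (diamonds) on a log axis, 1 array each, with the assumed floor of 45.4 as a dashed line. The 5 sets of TGFB2, the 2 of TGFBR2 and the single set of TGFBI lie left of the floor at both times, and the SKIL and LTBP1 sets right of it are all higher at 6 h.

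Among the ligands, TGFB1, the isoform most widely made by epithelial and tumour cells, had an intensity of 145.7 at 0 h and 174.2 at 6 h on set 203085_s_at, a log2 difference of 0.26. Of all measured probe sets 88.6% had a lower difference. Its other set, 203084_at, read 30.2 and 35.2, below the floor on both arrays, so the gene's difference rests on 1 set. TGFB2, an isoform that depends on the co-receptor TGFBR3 to bind TGFBR2 well, was below the floor on all 5 of its sets. Their values ran from 5.45 to 19.3, all well under the floor of 45.4. The array gave no measurable level of TGFB2 at either time.

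LTBP1, which covalently binds the TGF-β propeptide and anchors the latent complex, had the largest difference among the brightest sets of the 7 measured genes, close to that of SKIL. With the median of each gene's sets the order was the other way, 0.38 for LTBP1 and 0.44 for SKIL. Set 202729_s_at went from 413.5 to 563.2, a log2 difference of 0.45 or 1.36-fold, and set 202728_s_at went from 122.7 to 151.8, a difference of 0.31 or 1.24-fold. Both sets were thus higher at 6 h, and they lay 0.14 apart, less than the scatter of 0.16 between sets of a gene. The brighter set's difference was above that of 97.6% of all measured probe sets. Both identifiers end in _s_at, the maker's mark for probes that can match more than 1 transcript.

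The receptor genes stood on different sides of the floor. TGFBR1, the type I receptor kinase, read 836.0 at 0 h and 866.4 at 6 h on its brightest set 224793_s_at, a difference of 0.05. A dimmer set, 236561_at, went the other way, from 93.4 to 77.8 with a difference of -0.26, and the third set, 206943_at, read 21.3 and 24.3, below the floor. The measured sets were therefore 0.31 apart and opposite in sign, and no direction is shown for TGFBR1. After quantile normalization its brightest set also differed by -0.003. TGFBR2, the receptor that binds ligand first, read 34.9 and 40.3 on set 208944_at and 23.7 and 24.4 on set 207334_s_at. Both sets were below the floor at both times. With the floor lowered to the 40th percentile, an intensity of 30.4, the brighter set would count as measured, with a difference of 0.21.

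PMEPA1, the membrane inhibitor, was measured on 1 of its 3 sets. Set 222449_at read 91.0 at 0 h and 100.9 at 6 h, a difference of 0.15, which is within the scatter between sets of a gene. The other sets lay below the floor, at 38.1 and 41.4 (222450_at) and at 30.9 and 33.9 (217875_s_at).

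SKIL and SKI, the SnoN and Ski repressors, are closely related proteins, and their transcripts differed in these arrays. SKIL set 225227_at went from 334.1 to 453.7 and set 217591_at from 59.2 to 80.3, log2 differences of 0.44 on each, or 1.36-fold. The brighter and the dimmer set thus gave the same size of difference, above that of 97.5% of all measured sets. The dimmer set lay below the 60th percentile floor (72.5) at 0 h, so its size rests on the floor chosen. Under that floor 2 member sets in place of 3 were higher by at least 0.32. The other 3 SKIL sets lay below the floor, at 22.9 and 31.7 (206675_s_at), 9.67 and 10.8 (215889_at), and 19.5 and 13.3 (232379_at), and have no direction here. SKI was measured on all 3 of its sets. Set 229265_at read 1069 and 1087, a difference of 0.02, set 204270_at read 468.6 and 469.7, a difference of 0.003, and the dim set 213755_s_at read 63.4 and 58.6, a difference of -0.11. All 3 lay within the scatter between sets, and the brightest took values of -0.02 to 0.02 over the processing settings tried.

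TGIF1, a homeodomain repressor that competes with coactivators on SMAD complexes, was higher on each of its 3 sets. Set 203313_s_at went from 1158 to 1341, a difference of 0.21, set 1566901_at from 193.1 to 222.6, a difference of 0.20, and set 244858_at from 59.0 to 65.2, a difference of 0.14. The sets lay within 0.07 of each other, although the first differs by 1.16-fold only, and 84.0% of all measured sets had a lower difference than this one. Of the 5 member genes with at least 2 measured sets, LTBP1, SKIL and TGIF1 were higher on every set, while TGFBR1 and SKI had sets of both signs. Over all 6122 genes with at least 2 measured sets, 30.4% were higher on every set.

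TGFBI, a secreted matrix protein that TGF-β induces in many cell types, had 1 probe set, 201506_at. It read 30.5 at 0 h and 32.8 at 6 h, both below the floor. With the floor lowered to the 40th percentile it would count as measured, with a difference of 0.10.

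**Figure D2:**
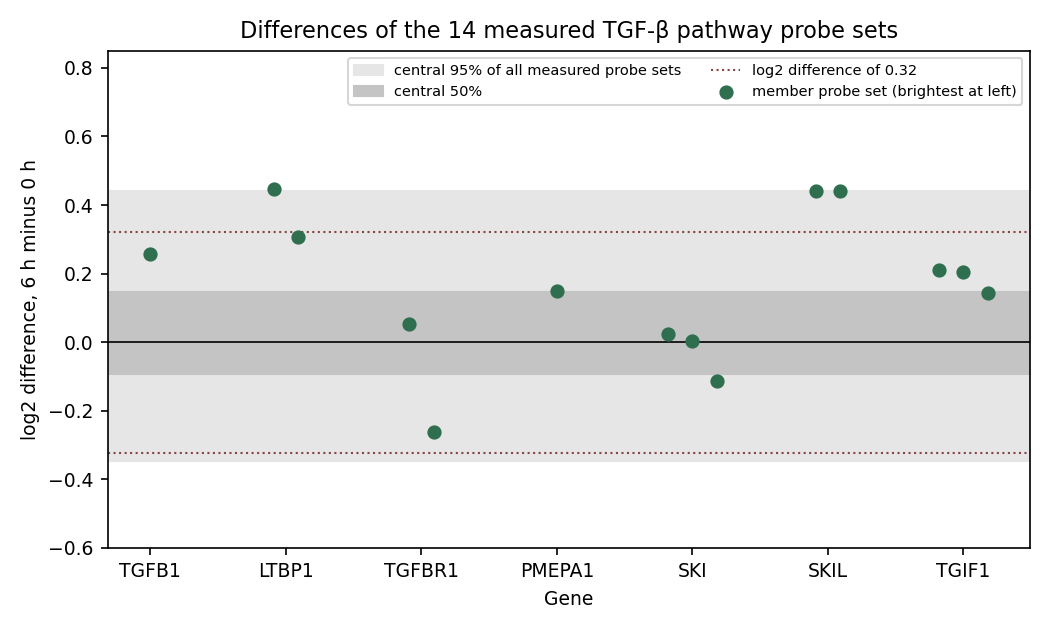
Log2 difference, 6 h minus 0 h, of the 14 measured probe sets by gene, each point 1 set with the brightest of a gene at the left; bands give the central 95% (-0.35 to 0.44) and central 50% (-0.09 to 0.15) of all 23272 measured sets, and dotted lines mark differences of 0.32 either way. Both SKIL sets and 1 LTBP1 set lie above the upper dotted line at the edge of the wider band, the TGIF1 sets lie close together, and the TGFBR1 sets lie on opposite sides of 0.

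Promoter sequences are shown for LTBP1 and SKIL because these genes had the largest differences on their brightest sets and were higher on each measured set. They come from RefSeq on build GRCh38.p14, in which 9 of the 10 genes had an entry, and each is the 250 bases before an annotated start, written 5′ to 3′ along the gene. Capitals mark CAGAC, the core of the DNA box that SMAD3 and SMAD4 bind, or its reverse complement GTCTG. The LTBP1 windows, at chr2:32946703-32946952 and chr2:33134119-33134368 on the plus strand, lie before the starts of a longer and a shorter form of the gene, and the SKIL window is chr3:170357465-170357714 on the plus strand.
LTBP1 upstream start: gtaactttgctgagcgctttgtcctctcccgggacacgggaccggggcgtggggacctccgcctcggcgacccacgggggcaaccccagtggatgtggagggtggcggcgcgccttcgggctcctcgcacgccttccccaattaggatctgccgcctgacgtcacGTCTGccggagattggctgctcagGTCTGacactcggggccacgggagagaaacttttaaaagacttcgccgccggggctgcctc
LTBP1 downstream start: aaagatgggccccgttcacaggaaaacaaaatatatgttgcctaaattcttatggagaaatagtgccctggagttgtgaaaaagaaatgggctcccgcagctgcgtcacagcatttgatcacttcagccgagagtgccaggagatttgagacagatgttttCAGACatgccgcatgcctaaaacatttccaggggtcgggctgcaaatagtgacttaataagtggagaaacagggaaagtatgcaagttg
SKIL: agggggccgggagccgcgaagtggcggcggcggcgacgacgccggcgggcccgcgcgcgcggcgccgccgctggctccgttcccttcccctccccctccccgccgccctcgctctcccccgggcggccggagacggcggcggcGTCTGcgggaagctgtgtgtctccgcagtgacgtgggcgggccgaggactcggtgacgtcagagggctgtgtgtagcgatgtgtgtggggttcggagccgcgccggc
The upstream LTBP1 window held 2 CAGAC boxes, whose first bases lie 85 and 61 bases before the start, the downstream window held 1 at 89 bases, and the SKIL window held 1 at 107 bases. A further LTBP1 start, not printed because its window overlaps the downstream one, held 1 as well. Over both strands 38% of all 35116 windows of this length held CAGAC, and 15 of the 28 windows of the 9 member genes did, some of which overlap. TGFB1 and TGFBI, each with 1 window, and TGFBR2, with 2, held none, while the single TGFB2 window held 2. The AP-1 motif TGANTCA, found in 6.57% of all windows, occurred in 1 of the 28 member windows, a TGIF1 start, and in none of those printed, so that no motif overlapped another there. A match is a description of the letters in the window and does not show binding.

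The rest of the pathway was followed through 8 lists with 108 genes that are not among the 10. Of these, 100 had a probe set named for them alone, and 80 were measured on at least 1 set. By the brightest set of each gene 52 of the 80 were higher, where 54.3% of all 12669 measured genes were, and 28 were lower. Their median difference was 0.07, beside 0.02 over all measured genes. Higher by at least 0.32 were 8 of the 80 and lower by as much were 3, where 6.28% and 3% of all measured genes were. The shares in these lists, 10% and 3.75%, are thus close to those of all genes.

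Around LTBP1, 2 of 7 measured genes of the latent complex and matrix storage were higher and 5 lower around a median of -0.15. Under a 60th percentile floor 4 genes were measured, 2 higher and 2 lower, with a median of -0.03. FBN1, the microfibril protein to which LTBPs attach, went from 62.0 to 83.3, a difference of 0.43 on 1 set, which was 0.20 under a 60th percentile floor (72.5). LTBP3, a relative of LTBP1, went from 539.8 to 468.3, a difference of -0.21, with its 3 sets between -0.21 and -0.07. FURIN, the protease that cuts the propeptide, read 138.2 and 124.4. LTBP1 and LTBP3 thus differed in opposite directions on every measured set. Among activators of the latent complex 0 of 7 measured genes passed 0.32 either way, with the largest differences at ITGB3 (0.20), THBS1 (0.17) and MMP14 (0.14, with sets from -0.26 to 0.23).

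Beside TGFBR1 and TGFBR2, 9 of 11 other receptors and co-receptors were higher, with a median of 0.12, and 2 passed 0.32, of which 0 did so after quantile normalization and ACVR2B alone after loess correction. These were ACVR2B, a type II activin receptor (486.4 to 630.3, with 3 sets between -0.22 and 0.37), and ACVR1, a type I receptor of the BMP branch (411.2 to 521.7). BMPR2, the BMP type II receptor, was just under that size, from 207.9 to 259.5, with 3 sets between 0.05 and 0.44. Among the SMADs and their anchors 8 of 9 were higher, or 5 of 9 after quantile normalization, with a median of 0.20. SMAD6, an inhibitory SMAD of the BMP branch, went from 101.8 to 156.4 on its only measured set, a difference of 0.62. SMAD9 differed by 0.31 and SMAD5 by 0.24, both effectors of the BMP branch. SMAD2 and SMAD3, the effectors of TGFBR1, and their partner SMAD4 differed by 0.22, 0.20 and 0.01 on their brightest sets, but over their sets SMAD3 ranged from -0.31 to 0.20 and SMAD4 from 0.01 to 0.43. SMAD7, the inhibitory SMAD of the TGF-β branch, read 14.7 and 11.7, below the floor. The genes SMAD2, SMAD3, SMAD4 and SMAD7 were named after their values were seen.

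All 7 measured nuclear partners in the list, proteins that act with SMADs in the nucleus, were higher, where 54.3% of all measured genes were. They were also higher under median centring, quantile normalization and loess correction. FOXH1, at 42.0 and 46.6, lay above the floor at 6 h only. Its difference of 0.04 is a bound, and under a 60th percentile floor 6 partners were measured, without FOXH1. The median of the 7 was 0.27, and 3 of them passed 0.32, where 6.28% of all measured genes did. Of these, EP300 fell under 0.32 after quantile normalization (0.310) and loess correction (0.317). SIN3A, a corepressor scaffold that SKI recruits, went from 614.5 to 920.6, a difference of 0.58, but its sets ranged from 0.02 to 0.58, and the value was 0.02 without _x_at and _s_at sets. ZEB1, a zinc-finger repressor that binds SMADs, went from 726.2 to 954.9 with 3 sets between 0.18 and 0.39. EP300, the acetyltransferase coactivator that TGIF1 competes with, went from 860.9 to 1104 with both sets between 0.34 and 0.36. In the list of SMAD and receptor turnover 9 of 14 were higher, and 0 passed 0.32 either way on their brightest sets. The SMAD phosphatase PPM1A was at 0.31, with sets from -0.04 to 0.33. The deubiquitinase USP11 was at 0.31 on 1 set, and the ubiquitin ligase NEDD4L was at 0.30, with sets from -0.04 to 0.30.

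Target genes of the pathway were split, 10 of 17 measured higher and 7 lower around a median of 0.03 (8 higher and 9 lower after quantile normalization). On their brightest sets 0 were higher by at least 0.32 and 2 lower by as much, where 6.28% and 3% of all measured genes were. The lower ones were ID1, a target that BMP raises and TGF-β can repress (2924 to 2048, a difference of -0.51), and COL1A1. COL1A1 had a difference of -0.36 on its brightest set and 0.94 on the other, so that it has no settled direction. FN1, which encodes fibronectin, went from 75.5 to 91.3, with its 3 sets between 0.27 and 0.36. Over their measured sets GADD45B ranged from -0.004 to 0.33 and TPM1 from -0.59 to 0.03, both named after their values were seen. Among the other superfamily ligands and traps 2 of 8 were higher and 6 lower around a median of -0.12. BMP4 went from 74.6 to 49.7 (-0.59, or -0.04 under a 60th percentile floor) and FSTL3, an activin trap, from 117.2 to 94.8 (-0.31). The largest difference of this list was upward, at GDF15, a stress-responsive cytokine, which lay just below the floor at 0 h and read 82.4 at 6 h. It was thus at least 1.81-fold higher, a bound that rests on the assumed floor (a difference of 0.86, or 0.18 under a 60th percentile floor), and it was named after its values were seen. FSTL1 itself was measured on 1 set, which read 58.3 and 52.8, a difference of -0.14. That is within the scatter of 0.20 for dim sets, and the set lay below the 60th percentile floor (72.5). The other FSTL1 sets were below the main floor on both arrays, at 7.96 and 9.22 and at 25.9 and 30.0. No direction is shown for FSTL1.

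**Figure D3:**
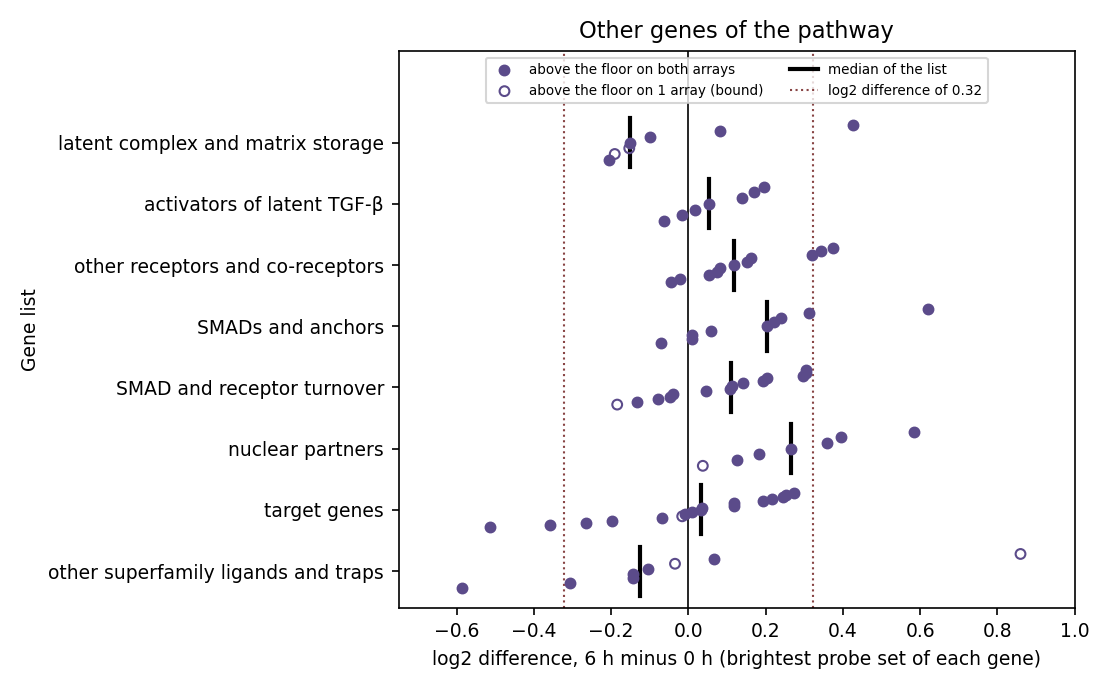
Log2 difference, 6 h minus 0 h, of the brightest probe set of each measured gene in the 8 lists of other pathway genes; filled points were above the floor on both arrays, open points on 1 array only and are bounds, black bars are list medians and dotted lines mark differences of 0.32 either way. All points of the nuclear partners lie right of 0 with a median of 0.27, while the target genes spread to both sides of a median of 0.03.

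The labelled cell type was checked against its markers. Summed intensities in this paragraph cover every marker of a list with a probe set, also those below the floor. For the type II alveolar markers the sums were 556.3 at 0 h and 616.1 at 6 h, and 5 of 8 with a probe set were measured. By their brightest sets 4 were higher and 1 lower around a median of 0.26, namely SFTPB (0.35, with sets from -0.39 to 0.35), NKX2-1 (0.28, with sets from -0.18 to 0.28), ABCA3 and NAPSA (0.26 each) and SFTPC (-0.30, with 4 sets from -0.30 to 0.02). The surfactant gene SFTPC, which defines the cell type, read 113.3 and 92.3, and SFTPD, SLC34A2 and LAMP3 were below the floor. Fibroblast markers were measured for 2 of 7 genes (sums of 212.2 and 195.2), with COL1A2, COL3A1, LUM, PDGFRA and PDGFRB below the floor. Leukocyte markers were measured for 0 of 4 genes (sums of 89.8 and 83.7) and endothelial markers for 1 of 5 (sums of 127.1 and 106.9), PECAM1 at 73.5 and 54.5, with CDH5, KDR, TEK and VWF below the floor. The part of these levels in the differences above was not tested.

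The differences of LTBP1, SKIL, TGIF1, TGFB1 and PMEPA1 kept their sign under each processing setting that gave a value. LTBP1 lay between 0.38 and 0.45, SKIL between 0.38 and 0.44, TGIF1 between 0.17 and 0.21, TGFB1 between 0.22 and 0.26 and PMEPA1 between 0.12 and 0.15. LTBP1 and SKIL stayed above 0.32 in each of them.

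**Figure D4:**
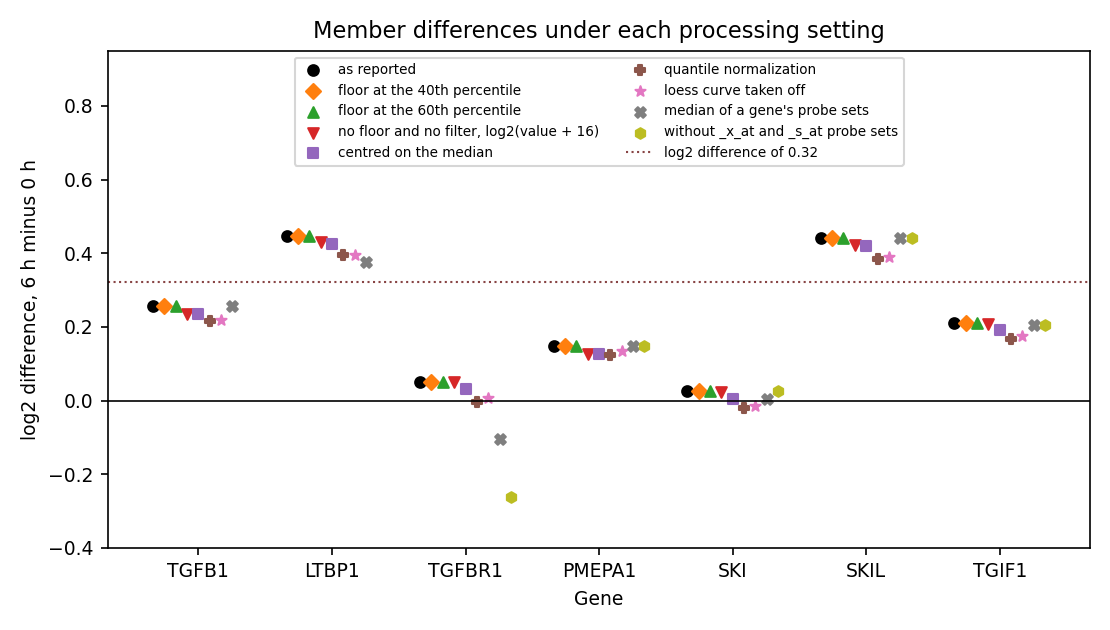
Log2 difference, 6 h minus 0 h, of the 7 measured genes under the reported processing and 8 alternatives, each symbol 1 setting, with a difference of 0.32 as a dotted line. LTBP1 and SKIL lie above the line in each setting that gives a value, SKI lies close to 0, and TGFBR1 falls to -0.26 without _x_at and _s_at probe sets.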

How the data were processed

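RNA of CL1-0 cells at 0 h and 6 h was hybridised to 1 array each. The deposited table holds linear intensity per probe set, summarised by the authors with MAS5 per the submitters' processing notes. Its version, parameters and scaling are not given in the sources used here. This method subtracts background and mismatch signal, which makes dim values noisy. A difference in the scaling factor alone would shift alike only the sets above the floor on both arrays. Quantile normalization and loess correction shift sets by amounts that differ with intensity.

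Probe sets were named through the platform annotation, with symbols updated by Entrez identifier through RefSeq (41037 of 41091 sets with 1 gene matched). The 62 array controls, 1801 sets with several genes and 11721 with none were left out. Values under the floor were set to it, put on log2 and subtracted, with Python 3.11.15, numpy 2.4.6 and pandas 2.3.3. A gene was represented by its set with the highest mean. Counts used log2 differences of 0.32 and 0.58. From each list up to 3 genes with the largest absolute difference above the floor on both arrays were named, and none for likeness to a member, since 2 arrays give no pattern. The members and lists were chosen with earlier results of these data known. The steps were tested on simulated data with planted differences of 1.5-fold or more in probe sets well above the floor. Dim sets and smaller differences were not covered by that check. Alternatives were floors at the 40th and 60th percentile, no floor with log2(value + 16), median centring, quantile normalization, loess (span 0.3), no _x_at or _s_at sets, and the median of a gene's sets. Protein sequences were not used here.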

Additional observations from a re-analysis of the deposited data

How the results depend on the processing

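Each time has 1 array, so differences were set against the scatter of 0.16 between probe sets of a gene, and none has a replicate check. No paired analysis was possible because each group has 1 array. TGFBR1 was -0.26 without _x_at and _s_at probe sets, which removes its brightest set, and -0.11 with the median of its sets; LTBP1 and TGFB1 have no value there. The median over member sets was 0.087 with no floor and no filter, which adds the dim sets, and lay between 0.09 and 0.18 over the settings tried. Member sets higher by any amount, a count added after the data were seen, numbered 23 of 29 with no floor and 7 of 8 without _x_at and _s_at sets. Member sets higher by at least 0.32 numbered 2 to 3, and 0 were lower by as much in each setting. Pathway genes higher by at least 0.32 numbered 5 after quantile normalization against 8, and those lower by as much numbered 5 under a 40th percentile floor and 1 without _x_at and _s_at sets against 3; with quantile normalization the split was 5 higher and 4 lower. COL1A1 was 0.29 with the median of its sets. Of the 24 other pathway genes named by the rule, 23 kept their sign in each setting that gave a value; COL1A1 did not. Dim sets near the assumed floor limit what can be said of TGFB2, TGFBR2 and TGFBI.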
